A study of Mus musculus with 8 samples.

Results

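Midbrain dopaminergic neuron genes are described here in whole brains of newborn mice, as a set of 10 genes chosen by symbol: *Th*, *Ddc*, *Slc6a3*, *Slc18a2*, *Pitx3*, *Nr4a2*, *Foxa1*, *Foxa2*, *Lmx1a* and *En1*. All 10 were found among the 49585 genes of the C57BL/6J count table, and all 10 were among the 23113 genes that were tested. The study asked how cadmium (Cd) given to mothers alters the brains of their pups. F1 females from C57BL/6J mothers and CAST/EiJ fathers (B × C) were used, and their mothers drank water with 0 ppm or 50 ppm CdCl2 before mating and through gestation. Whole brains were frozen within a day of birth, and the poly(A) RNA of 4 brains per dose was sequenced, with each pup from another litter. Both doses share the hybrid background, the sex and the age, and no gene was deleted or added in any group.

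None of the 10 genes passed the test between doses after adjustment over all genes tested. *Foxa1* and *Lmx1a*, transcription factor genes of the ventral midbrain, were lower on average at 50 ppm, with unadjusted p-values of 0.0321 and 0.0328 (edgeR) and overlapping doses. *Th*, *Ddc*, *Slc18a2* and *Slc6a3*, which make, package and recapture dopamine, had log2 fold changes between 0.00 and 0.14, and they varied more between the brains of a dose than most genes at their level. *Th*, *Ddc* and *Slc18a2* varied together from brain to brain by Pearson r. By Spearman rho, or with any 1 brain left out, none of their pairs passed after adjustment.

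Midbrain dopaminergic neurons lie in the substantia nigra and the ventral tegmental area and project to the striatum and the cortex. Their progenitors form in the floor plate of the midbrain under *Foxa1*, *Foxa2*, *Lmx1a* and *En1*, and *Nr4a2* and *Pitx3* then act in the postmitotic neurons. Tyrosine hydroxylase (*Th*) makes L-DOPA from tyrosine, aromatic L-amino acid decarboxylase (*Ddc*) makes dopamine from L-DOPA, the vesicular transporter VMAT2 (*Slc18a2*) loads it into vesicles, and the dopamine transporter DAT (*Slc6a3*) takes it up again. These neurons are a small part of a newborn brain, and most of the 10 genes are also used elsewhere. *Th*, *Ddc* and *Slc18a2* are used in noradrenergic neurons, *Ddc* and *Slc18a2* in serotonergic neurons, and *Nr4a2* in the cortex. In RNA from a whole brain, fewer cells of a type and less RNA per cell cannot be told apart.

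The promoters of the 3 genes that varied together, and of *Slc6a3* for comparison, are shown first. Each sequence runs 5′ to 3′ on the strand of the gene from 250 bases before the start site to the first 30 bases of the transcript (280 bases, RefSeq, GRCm38.p6). Capitals mark matches to the motifs searched on both strands. The *Th* promoter (chr7:142899966-142900245, minus strand) and the *Slc18a2* promoter (chr19:59260628-59260907, plus strand) hold the cAMP response element TGACGTCA. In *Th* it spans the bases from 45 to 38 before the start, and in *Slc18a2* from 4 before the start to base 4 of the transcript. The first *Ddc* promoter (chr11:11898115-11898394, minus strand) holds AAAGGTCA, the NBRE letters bound by Nr4a2, read on the opposite strand from 73 to 66 before the start. It overlaps there with TATAAA, also on the opposite strand, from 68 to 63 before the start. The *Slc6a3* promoter (chr13:73536497-73536776, plus strand) has no match and so no capitals.
Th: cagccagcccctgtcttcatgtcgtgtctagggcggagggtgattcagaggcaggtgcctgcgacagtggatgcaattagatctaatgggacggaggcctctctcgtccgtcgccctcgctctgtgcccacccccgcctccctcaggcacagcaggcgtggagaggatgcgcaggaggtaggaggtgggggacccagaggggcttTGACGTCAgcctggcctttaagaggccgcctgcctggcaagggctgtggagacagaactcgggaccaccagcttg
Slc18a2: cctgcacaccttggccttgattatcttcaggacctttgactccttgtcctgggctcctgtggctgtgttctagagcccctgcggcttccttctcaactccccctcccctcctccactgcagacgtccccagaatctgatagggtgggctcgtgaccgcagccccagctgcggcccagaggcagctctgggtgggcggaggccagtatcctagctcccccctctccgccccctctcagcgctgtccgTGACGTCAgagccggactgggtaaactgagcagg
Ddc, start 1: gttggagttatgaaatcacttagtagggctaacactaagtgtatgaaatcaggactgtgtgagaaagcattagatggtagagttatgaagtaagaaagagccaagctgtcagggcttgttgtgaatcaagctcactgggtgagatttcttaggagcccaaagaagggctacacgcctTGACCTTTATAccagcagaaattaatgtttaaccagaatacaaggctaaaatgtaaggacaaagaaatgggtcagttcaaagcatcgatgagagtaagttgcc
Slc6a3: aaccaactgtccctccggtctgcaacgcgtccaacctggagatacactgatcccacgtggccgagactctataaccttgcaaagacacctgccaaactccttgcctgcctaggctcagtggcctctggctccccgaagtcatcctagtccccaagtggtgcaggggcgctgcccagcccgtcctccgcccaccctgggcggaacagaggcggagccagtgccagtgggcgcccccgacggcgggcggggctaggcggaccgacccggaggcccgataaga

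Among 32851 promoters of the same length, TGACGTCA is in 1.74% and AAAGGTCA in 1.45%. The other motifs searched were TGTTTAC (forkhead, 3.49% of promoters), TAATTA (homeodomain, 5.09%), TAATCC (Pitx, 6.77%) and TATAAA (13.1%). Of the 13 promoters that the table holds for the 10 genes, TGACGTCA is in 2, TATAAA in 3 (*Ddc*, *Foxa2* and *Nr4a2*), TGTTTAC in 1 (*Foxa1*) and AAAGGTCA in 1. TAATTA and TAATCC are in none of the 13, and the second *Ddc* start (chr11:11890379-11890658, minus strand) holds none of the 6 motifs. Only the first *Ddc* start is printed above, and which *Ddc* start these brains used was not tested. These matches describe the letters of the windows only.

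On GRCm38 (GENCODE M21), *Th* spans 142892752 to 142931128 of chromosome 7 (minus strand), *Ddc* 11814101 to 11898144 of chromosome 11 (minus strand) and *Slc6a3* 73536747 to 73578672 of chromosome 13 (plus strand). The promoters above were placed by RefSeq starts, which differ from the starts of these spans for *Th* and *Slc18a2*. The *Th* promoter shown lies inside the *Th* span. *Slc18a2* (59260896 to 59296012, plus strand) and *Pitx3* (46135685 to 46148326, minus strand) are both on chromosome 19. *Nr4a2* (57106830 to 57124003, minus strand) and *Foxa2* (148042877 to 148046969, minus strand) are on chromosome 2. *Lmx1a* (167689237 to 167848741, plus strand) and *En1* (120602418 to 120607992, plus strand) are on chromosome 1, and *Foxa1* is on chromosome 12 (57540628 to 57546916, minus strand). Of the 10 genes, *Slc18a2* and *Pitx3* share exon bases with another gene: 2.12% of the exon bases of *Slc18a2* overlap *Gm29261* and 0.655% of those of *Pitx3* overlap *Elovl3*, both on the opposite strand. The strand setting of the count is not given in the sources used here, so reads from these overlaps are uncertain.

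The libraries held between 22916434 and 30708087 counted reads, so that 3 counts, the limit that a count of 0 allows, make 0.098 to 0.132 CPM (counts per 1000000 counted reads, with the library size scaled by the TMM factor). This limit covers counting error only. Between the 12 pairs of libraries of the same dose, the chi-square per degree of freedom was 9.28 to 22.7, so no library repeated another. Of 9 genes for neurons, glia, vessels and microglia, 8 were counted in the brains and *Tubb3* was listed at 0 in all 8. The summed CPM of region markers differed between the control brains. The summed CPM of the hindbrain *Hox* genes was 0.0341 in 0 ppm replicate 1 and 0.409 in 0 ppm replicate 2, against 9.67 to 48.7 in the other 6 brains. Of the 6 hindbrain genes, *Hoxa3* and *Hoxd4* were listed at 0 in all 8 brains. The summed CPM of 5 forebrain genes lay between 383 (0 ppm replicate 3) and 760 (0 ppm replicate 1) at 0 ppm and between 511 and 640 at 50 ppm. That of 5 cerebellum genes lay between 154 (0 ppm replicate 1) and 307 (0 ppm replicate 2) at 0 ppm and between 239 and 261 at 50 ppm. The differences of the 10 genes, and those of genes named from the other lists by p or count, were also computed without both control brains low in *Hox* genes.

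*Th*, the rate-limiting enzyme gene of dopamine synthesis, had 4.95, 4.06, 9.24 and 5.61 CPM in the controls and 3.89, 8.64, 6.71 and 7.19 CPM in the exposed brains, replicates 1 to 4 in each. The highest brain was a control and the lowest an exposed one, and the doses overlapped. The controls averaged 5.97 CPM ± 2.28 (SD, n = 4) and the exposed brains 6.61 CPM ± 1.99 (SD, n = 4). The log2 fold change of 50 ppm over 0 ppm was 0.14 (SE 0.24, 95% interval -0.36 to 0.64, edgeR quasi-likelihood test adjusted p = 0.999).

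*Ddc*, whose enzyme also serves serotonin synthesis, had 9.9, 8.37, 14.8 and 13.5 CPM in the controls and 8.14, 14.9, 10.8 and 12.7 CPM in the exposed brains. The doses covered nearly the same range. The controls averaged 11.7 CPM ± 3.02 (SD, n = 4) and the exposed brains 11.7 CPM ± 2.87 (SD, n = 4), and the log2 fold change was 0.00 (SE 0.18, 95% interval -0.39 to 0.39).

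*Slc18a2*, the vesicular transporter gene of all monoamine neurons, had 14.7, 10.7, 26.9 and 18.1 CPM in the controls and 12.8, 20.7, 18.8 and 23.3 CPM in the exposed brains. The 4 exposed brains lay within the range of the controls. The controls averaged 17.6 CPM ± 6.88 (SD, n = 4) and the exposed brains 18.9 CPM ± 4.46 (SD, n = 4), and the log2 fold change was 0.10 (SE 0.21, 95% interval -0.35 to 0.54).

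*Slc6a3*, whose expression is the most restricted of the 4 to dopaminergic neurons, had 7.1, 4.43, 16.4 and 4.61 CPM in the controls and 5.68, 15.3, 7.64 and 6.57 CPM in the exposed brains. 1 brain of each dose, 0 ppm replicate 3 and 50 ppm replicate 2, was above 15 CPM, and the other 6 were between 4.43 and 7.64 CPM. The controls averaged 8.12 CPM ± 5.62 (SD, n = 4) and the exposed brains 8.80 CPM ± 4.41 (SD, n = 4), and the log2 fold change was 0.11 (SE 0.35, 95% interval -0.62 to 0.84). This value depended on those brains: it was 0.71 (unadjusted p = 0.018, adjusted p = 0.814, edgeR) without 0 ppm replicate 3 and -0.30 (adjusted p = 1.0, edgeR) without 50 ppm replicate 2.

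**Figure D1:**
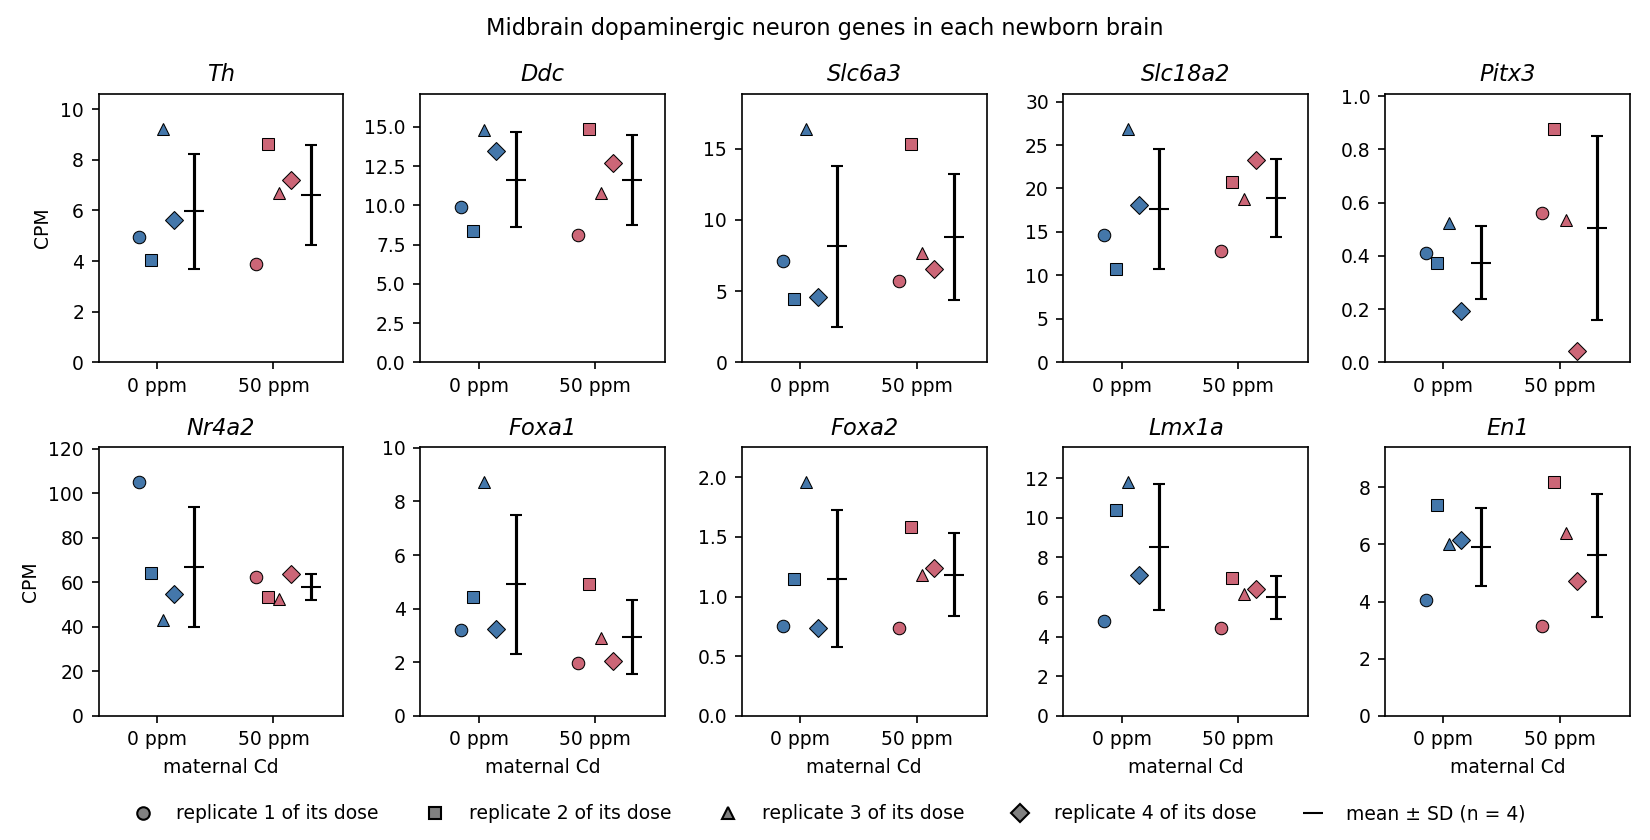
Expression of the 10 genes in CPM (vertical axis, from 0, with its own scale for each gene) in each of the 4 brains at 0 ppm (blue) and the 4 at 50 ppm (red). A marker shape gives the replicate number within its dose, and the black bars are the mean ± SD (n = 4). The doses overlap for each gene, and *Slc6a3* has 1 brain above 15 CPM at each dose.

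*Foxa1*, a forkhead factor gene of the floor plate, had 3.21, 4.43, 8.72 and 3.25 CPM in the controls and 1.96, 4.92, 2.89 and 2.03 CPM in the exposed brains. Of the exposed brains, 3 were below all controls and replicate 2 was above 3 of the controls. The controls averaged 4.90 CPM ± 2.61 (SD, n = 4) and the exposed brains 2.95 CPM ± 1.38 (SD, n = 4), and the log2 fold change was -0.73 (SE 0.31, 95% interval -1.39 to -0.07, unadjusted p = 0.0321, adjusted p = 0.999, edgeR). An exact two-sided permutation test of the log2 CPM gave p = 0.171, where the smallest p that 4 against 4 brains allow is 0.0286. Without 0 ppm replicate 3 the log2 fold change was -0.29, and without 50 ppm replicate 2 it was -1.10.

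*Lmx1a*, a LIM homeobox gene that specifies dopaminergic progenitors and is also active in the roof plate, had 4.81, 10.4, 11.8 and 7.09 CPM in the controls and 4.42, 6.95, 6.17 and 6.4 CPM in the exposed brains. The 4 exposed brains were below 3 of the 4 controls and overlapped with 0 ppm replicate 1. The controls averaged 8.51 CPM ± 3.15 (SD, n = 4) and the exposed brains 5.99 CPM ± 1.09 (SD, n = 4), and the log2 fold change was -0.51 (SE 0.22, 95% interval -0.97 to -0.05, unadjusted p = 0.0328, adjusted p = 0.999, edgeR). The exact permutation test gave p = 0.2. Without 0 ppm replicate 3 the log2 fold change was -0.31.

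*Foxa2*, the second forkhead factor gene of the floor plate, was counted at 0.736 to 1.96 CPM at 0 ppm and 0.737 to 1.58 CPM at 50 ppm. Its highest brain was 0 ppm replicate 3, as for *Foxa1* and *Lmx1a*, and its log2 fold change was 0.03 (SE 0.32, 95% interval -0.65 to 0.71). *En1*, a homeobox gene of the midbrain and anterior hindbrain that keeps dopaminergic neurons alive, was counted at 4.06 to 7.37 CPM and 3.16 to 8.18 CPM. The exposed brains held both the lowest and the highest value, and the log2 fold change was -0.07 (SE 0.23, 95% interval -0.56 to 0.42).

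*Nr4a2* (Nurr1), an orphan nuclear receptor gene needed for *Th* expression in these neurons and also active in the cortex, had 105, 64.2, 42.9 and 54.9 CPM in the controls and 62.2, 53.2, 52.4 and 63.9 CPM in the exposed brains. The control brains held both the highest and the lowest value, and the exposed brains lay close together. The controls averaged 66.7 CPM ± 26.9 (SD, n = 4) and the exposed brains 57.9 CPM ± 5.95 (SD, n = 4), and the log2 fold change was -0.20 (SE 0.18, 95% interval -0.58 to 0.17). Its highest brain, 0 ppm replicate 1, was the brain with the highest summed CPM of forebrain genes, and its lowest, 0 ppm replicate 3, was the brain with the lowest. The part of forebrain content in this difference was not tested. Without 0 ppm replicate 1 the log2 fold change was 0.10.

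*Pitx3*, a homeobox gene of mature midbrain dopaminergic neurons, was the least counted of the 10, with 12, 10, 16 and 5 reads at 0 ppm and 16, 25, 15 and 1 reads at 50 ppm. The single read in 50 ppm replicate 4 and the 25 reads in 50 ppm replicate 2 bounded both doses. The log2 fold change was 0.45 (SE 0.50, 95% interval -0.60 to 1.49), the widest interval of the 10. It was 0.06 without 50 ppm replicate 2, 0.24 without 0 ppm replicate 4 and 0.79 without 50 ppm replicate 4.

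Across the 10 genes, 0 passed an adjusted p of 0.05 in edgeR's quasi-likelihood test, where 4 of all 23113 genes tested (0.0173%) passed. At an unadjusted p under 0.05, 2 of the 10 (*Foxa1* and *Lmx1a*) passed, both lower at 50 ppm, against 3.75% of all genes in either direction and 1.44% lower. DESeq2 and limma-voom also called 0 of the 10. The CPM of the doses overlapped for each of the 10 genes, and did not overlap for 2.09% of all genes tested. The log2 fold change was above 0 for 5 genes and below 0 for 5, with a median of 0.01, beside a median of 0.00 over all genes tested. Among the 4 dopamine-handling genes the 95% interval of the log2 fold change was narrowest for *Ddc* (-0.39 to 0.39) and widest for *Slc6a3* (-0.62 to 0.84).

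**Figure D2:**
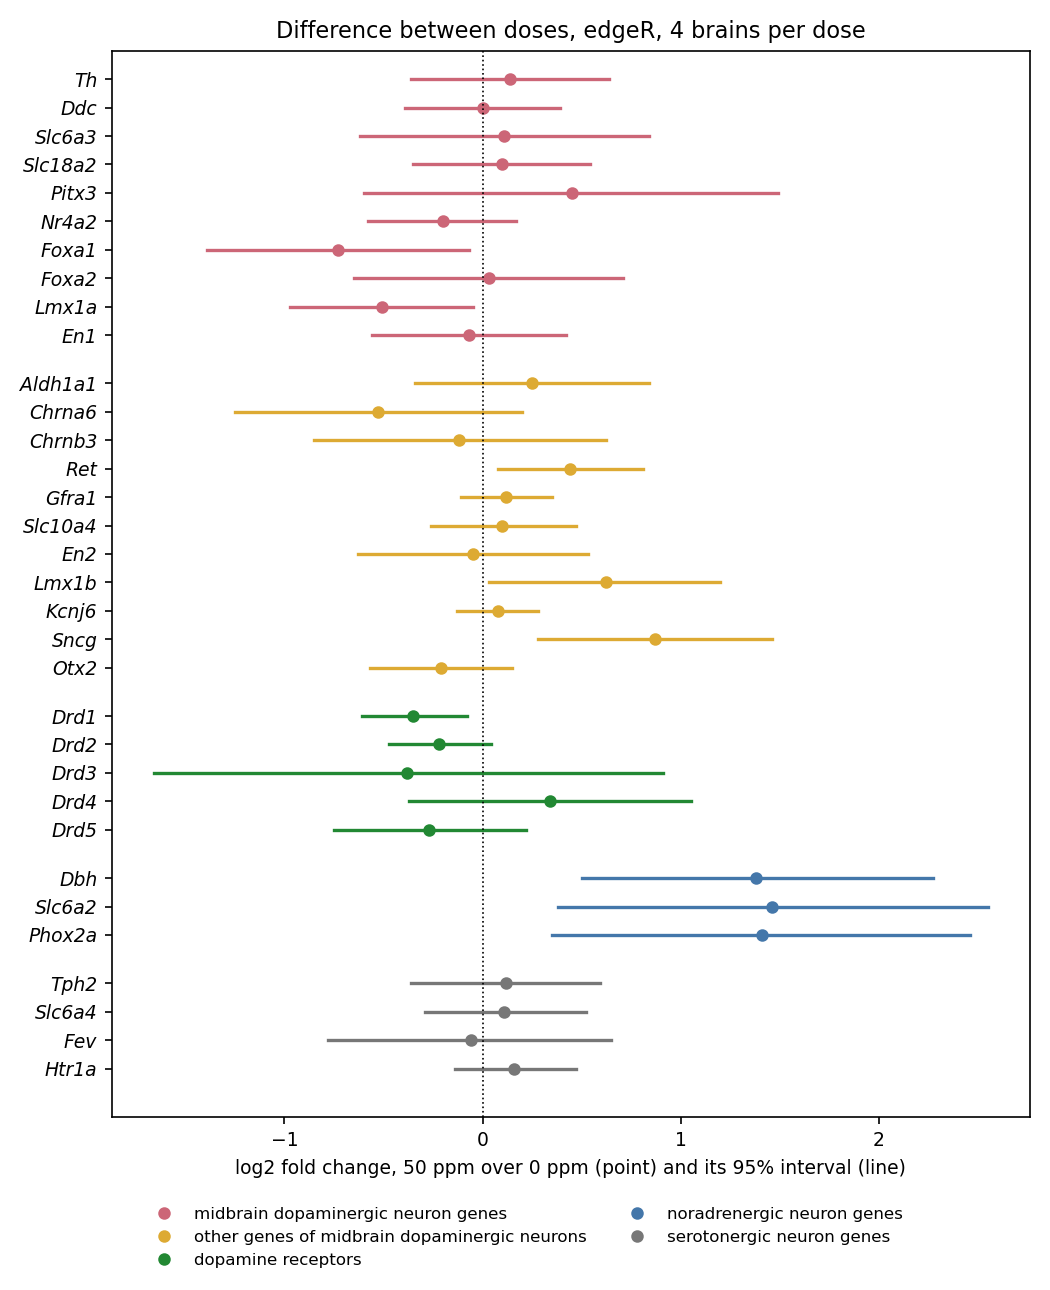
Log2 fold change of 50 ppm over 0 ppm (horizontal axis, points) with its 95% interval (lines) from edgeR, 4 brains per dose, for the 10 genes (red), other genes of midbrain dopaminergic neurons (yellow), dopamine receptors (green), noradrenergic genes (blue) and serotonergic genes (grey). The intervals of 8 of the 10 genes include 0, and none of the genes drawn passed the adjusted threshold.

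Without both control brains low in *Hox* genes, again 0 of the 10 genes passed the adjusted threshold in edgeR. *Foxa1* and *Lmx1a* were then at -1.03 (unadjusted p = 0.00306, adjusted p = 0.599, edgeR) and -0.67 (unadjusted p = 0.00264, adjusted p = 0.562, edgeR). *Th* was at -0.18, *Slc18a2* at -0.26, *Slc6a3* at -0.27 and *Foxa2* at -0.22, each with the opposite sign to the value from all 8 brains, and *Nr4a2* was at 0.24. *Ddc*, at 0.00 with all 8 brains, was at -0.29 (unadjusted p = 0.11, adjusted p = 0.998, edgeR). In this fit 2 brains stand for the controls.

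Levels were compared between genes per kilobase of exon. *Nr4a2* had 15.4 CPM per kilobase on average (10.6 to 25.8 over the 8 brains), above each brain of the other 9 genes. *Slc18a2* (3.5, range 2.05 to 5.14), *Th* (2.66, range 1.65 to 3.91), *Ddc* (2.61, range 1.82 to 3.34) and *Slc6a3* (2.45, range 1.28 to 4.73) followed in CPM per kilobase, with ranges that overlap. *En1* (2.19), *Lmx1a* (2.13), *Foxa1* (1.18), *Foxa2* (0.492) and *Pitx3* (0.288) were lower on this scale, and each overlapped in range with its neighbour in this order. The step from *Nr4a2* to *Slc18a2* was thus the one step larger than the spread between brains.

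The 10 genes differed in level between brains. Over the 8 brains of both doses, the highest exceeded the lowest 2.37-fold for *Th*, 1.83-fold for *Ddc*, 2.51-fold for *Slc18a2*, 3.7-fold for *Slc6a3* and 4.44-fold for *Foxa1*. 0 ppm replicate 3 was the highest of the 8 brains in 6 genes (*Th*, *Slc6a3*, *Slc18a2*, *Foxa1*, *Foxa2* and *Lmx1a*), and 50 ppm replicate 2 in 3 (*Ddc*, *Pitx3* and *En1*). 50 ppm replicate 1 was the lowest in 5 (*Th*, *Ddc*, *Foxa1*, *Lmx1a* and *En1*). The highest and the lowest brains thus came from both doses.

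*Th*, *Ddc* and *Slc18a2* were high and low in much the same brains. *Th* and *Slc18a2* had a Pearson r of 0.94 in log2 CPM over the 8 brains (exact permutation p = 0.000843, adjusted p = 0.0379) and a Spearman rho of 0.95 (exact permutation p = 0.00114, adjusted p = 0.0513). *Th* and *Ddc* had r = 0.91 (exact permutation p = 0.0029, adjusted p = 0.0487) and rho = 0.90 (exact permutation p = 0.00456, adjusted p = 0.103). *Ddc* and *Slc18a2* had r = 0.90 (exact permutation p = 0.00325, adjusted p = 0.0487) and rho = 0.81 (exact permutation p = 0.0218, adjusted p = 0.184). These 3 of the 45 pairs passed an adjusted p of 0.05 by r, and 0 did by rho, with adjustment over the 45 pairs. 8 pairs had an unadjusted p of r under 0.05.

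Without the 2 brains farthest from the median of the gene on the x axis, r was 0.89 for *Th* and *Slc18a2* (exact permutation p = 0.0194), 0.77 for *Th* and *Ddc* (exact permutation p = 0.0847) and 0.75 for *Ddc* and *Slc18a2* (exact permutation p = 0.0917). Leaving out the ends of the range tends by itself to lower r. These values thus do not show how far the relations of *Ddc* rest on those brains. With any 1 brain left out, r was at least 0.88 for *Th* and *Ddc* and 0.87 for *Ddc* and *Slc18a2*. With the mean of each dose subtracted, r was 0.94, 0.93 and 0.91 for the same 3 pairs, so they held within doses. *Th* and *Slc6a3* had r = 0.83 (exact permutation p = 0.0109, adjusted p = 0.122) and rho = 0.79 (exact permutation p = 0.0279, adjusted p = 0.184), and without the 2 brains farthest from the median r was 0.83 (exact permutation p = 0.0583). Among 14601 genes with a mean of at least 1 CPM, *Slc18a2* ranked 5 by its r with *Th*, *Ddc* ranked 19 and *Slc6a3* ranked 143. *Foxa2* ranked 251, *Foxa1* 2012, *En1* 2341, *Lmx1a* 3020 and *Nr4a2* 12865.

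**Figure D3:**
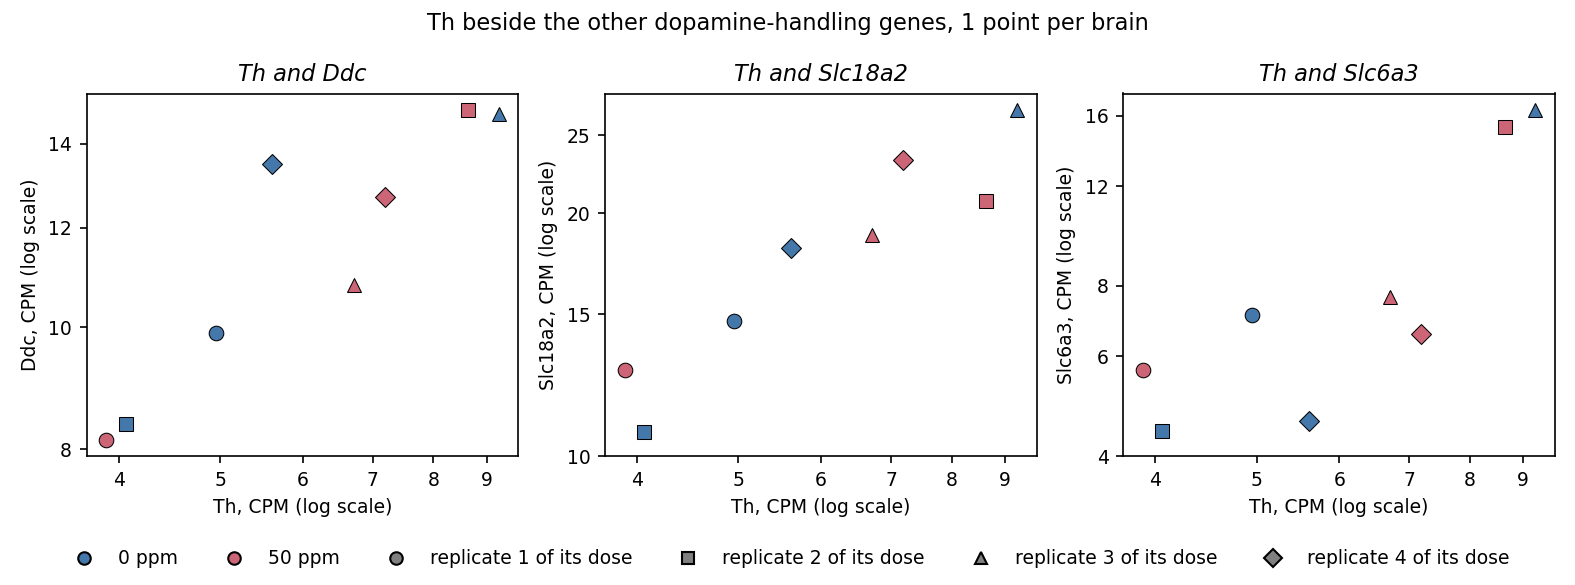
CPM of *Ddc*, *Slc18a2* and *Slc6a3* (vertical axes, log scale) against CPM of *Th* (horizontal axes, log scale), 1 point per brain, blue for 0 ppm and red for 50 ppm, with marker shapes for the replicate number. Brains of both doses are interleaved along each rise, with r of 0.91, 0.94 and 0.83.

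The progenitor factor genes formed a looser group. *Foxa1* and *Lmx1a* had r = 0.81 (exact permutation p = 0.0137, adjusted p = 0.123) and rho = 0.83 (exact permutation p = 0.0154, adjusted p = 0.173). Without the 2 brains farthest from the median of *Foxa1*, r was 0.47 (exact permutation p = 0.333). A narrower range tends by itself to lower r, so this value does not show whether the relation rests on those brains. With any 1 brain left out, r was 0.64 to 0.86. *Nr4a2* had a negative r with each of the other 9 genes, from -0.18 with *Pitx3* to -0.64 with *Foxa2*, and none of these 9 passed the adjusted threshold. Of the 36 pairs without *Nr4a2*, 34 had a positive r. The brains share the depth and the regional content of their libraries, whose part in these correlations was not tested.

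**Figure D4:**
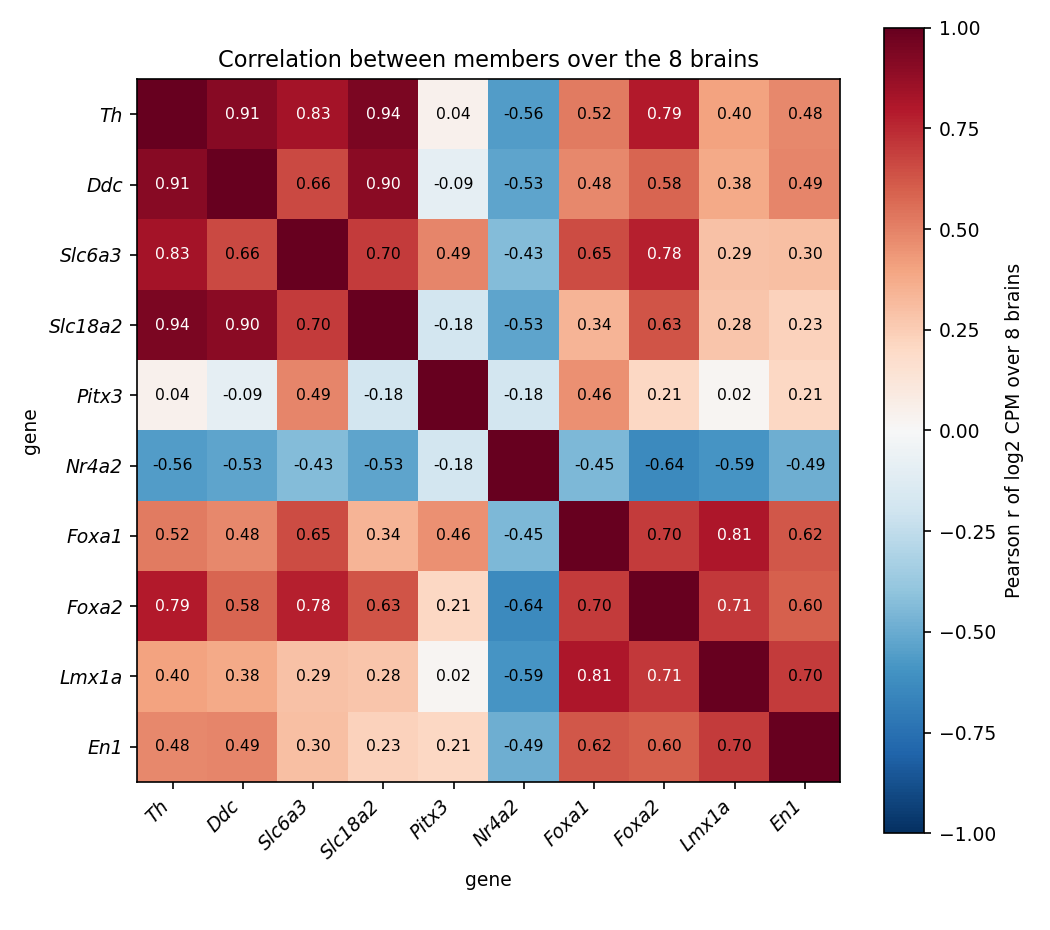
Pearson r of log2 CPM over the 8 brains for each pair of the 10 genes (rows and columns), printed in the cells and coloured from blue (-1) over white (0) to red (1). *Th*, *Ddc* and *Slc18a2* have r of 0.90 to 0.94 with each other, and the row of *Nr4a2* is negative throughout.

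The spread was also measured as the biological coefficient of variation (BCV), the relative spread between brains of one dose beyond counting error, beside the trend for genes of the same mean count. The BCV was 0.345 for *Slc6a3*, where the trend was 0.141, and 0.235 for *Th*, where the trend was 0.153. It was 0.182 for *Nr4a2*, where the trend was 0.0913. The BCV was above the trend for 10 of the 10 genes and for 36.0% of all genes tested, and the median ratio to the trend was 1.52, beside 0.949 over all genes. *Slc6a3* had a higher ratio than 99.8% of the genes tested, *Nr4a2* than 99.4%, *Slc18a2* than 99.0%, *Foxa1* than 98.9% and *Th* than 96.8%. The lowest of the 10 was *Foxa2*, above 91.0%. Some other lists of genes of single brain regions were also above the trend throughout: 5 of 5 forebrain genes, 5 of 5 cerebellum genes and 7 of 7 midbrain genes of other neurons. Others were so only in part: 6 of 8 ventral midbrain induction and progenitor genes, 5 of 8 genes of striatal neurons and 1 of 5 dopamine receptor genes.

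**Figure D5:**
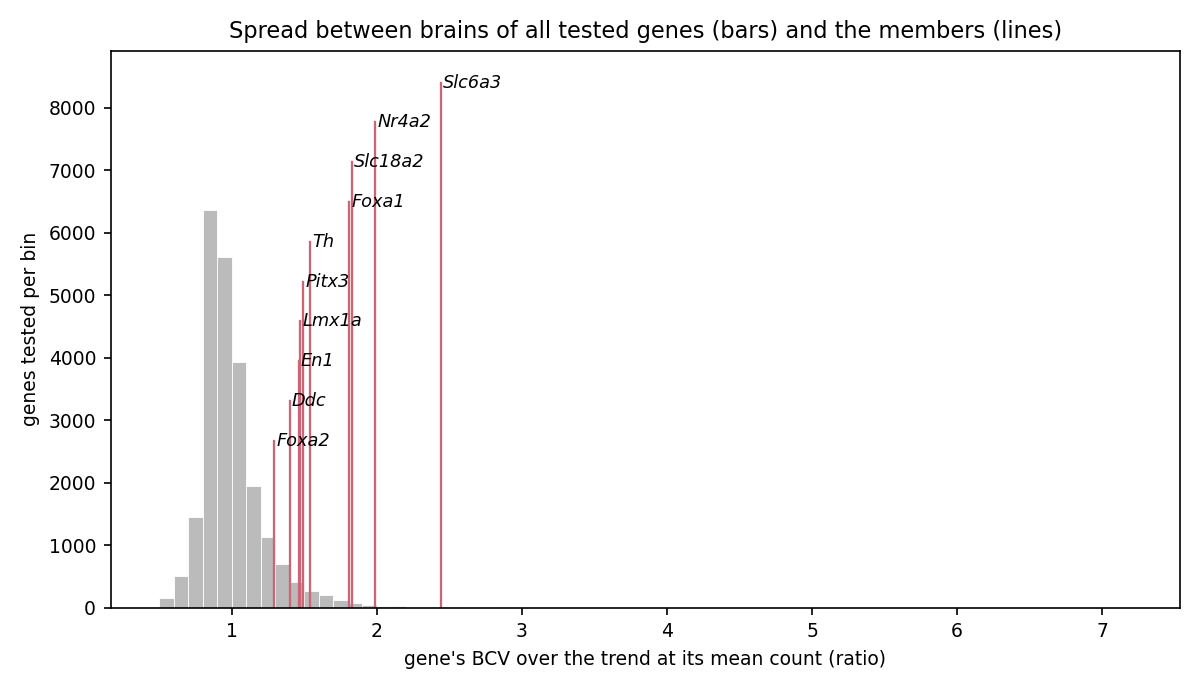
Histogram of the ratio of a gene's BCV to the trend at its mean count (horizontal axis) over all 23113 genes tested (grey bars, genes per bin of 0.1), with the ratios of the 10 genes as red lines whose heights carry no value. All 10 lines lie to the right of 1, from 1.29 for *Foxa2* to 2.44 for *Slc6a3*.

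The genes whose pattern over the 8 brains was most like *Slc6a3*, among the 14602 genes with a mean of at least 1 CPM, were *2810025M15Rik*, *Ten1*, *Copz1*, *Ndufb3*, *Cib2*, *A330074K22Rik*, *Maff*, *Hsp90b1*, *Qpct* and *Rpl10*, with r of 0.94 to 0.97 over 8 brains. 9 of the 10 spread little, with the highest brain 1.11-fold to 1.8-fold the lowest, and *Maff* spread 2.82-fold. Among the 1392 genes that spread at least 2-fold, a limit chosen after the values were seen, *Aldh1a1* and *Chrnb3* were among the 10 most alike, with r of 0.92 and 0.90. *Aldh1a1* encodes a retinaldehyde dehydrogenase of ventral nigral dopaminergic neurons and *Chrnb3* a nicotinic receptor subunit of these neurons. Both are in the list of other dopaminergic neuron genes. In the rest of that list, r with *Slc6a3* ran from -0.54 (*Kcnj6*) to 0.66 (*Slc10a4*). There *Otx2* was at -0.16 and *En2* at -0.03. *Aldh1a1* had 13.6, 9.04, 28.1 and 12.9 CPM in the controls and 17.3, 31.0, 13.8 and 13.8 CPM in the exposed brains, highest in the same 2 brains as *Slc6a3*.

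The 11 other genes of midbrain dopaminergic neurons were all tested, and 0 passed the adjusted threshold in edgeR. At an unadjusted p under 0.05, 3 of the 11 passed, all higher at 50 ppm, beside 3.75% of all genes. They were *Sncg*, gamma-synuclein (log2 fold change 0.87, SE 0.28), *Lmx1b*, a LIM homeobox gene also used in serotonergic neurons (0.62, SE 0.28), and *Ret*, a receptor for GDNF-family ligands also used in motor and noradrenergic neurons (0.44, SE 0.18). The adjusted p was 0.999 for each of the 3 in edgeR. *Sncg* passed the adjusted threshold without 0 ppm replicate 3, at 1.32 (adjusted p = 0.0276, edgeR). Without both control brains low in *Hox* genes these log2 fold changes were 0.32, 0.23 and 0.08. The median log2 fold change of the list was 0.10.

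Of 8 enzyme genes of the dopamine cofactor and of dopamine breakdown, 0 passed at the adjusted or the unadjusted threshold in edgeR. The most counted were *Maoa*, monoamine oxidase A (log2 fold change 0.11, SE 0.09), and *Qdpr*, which restores the cofactor tetrahydrobiopterin (0.03, SE 0.08). Of 5 dopamine receptor genes, 0 passed the adjusted threshold and *Drd1* passed the unadjusted one, beside 3.75% of all genes. *Drd1*, the main receptor of the direct striatal pathway, had 16.1, 13.3, 12.4 and 12.2 CPM in the controls and 11.4, 12, 9.88 and 9.09 CPM in the exposed brains. The 4 exposed brains were below the 4 controls, where the doses did not overlap for 2.09% of all genes tested. The log2 fold change was -0.35 (SE 0.13, 95% interval -0.61 to -0.08, unadjusted p = 0.0137, adjusted p = 0.999, edgeR), and -0.22 without both control brains low in *Hox* genes. Of 8 genes of striatal neurons, 0 passed at either threshold, with *Gnal* at 0.04 (SE 0.07) and *Adcy5* at -0.03 (SE 0.07) on the log2 fold change scale.

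Of 8 genes of ventral midbrain induction and progenitors, 0 passed the adjusted threshold. *Neurog2*, a proneural factor gene, passed the unadjusted one with a log2 fold change of -0.65 (SE 0.28, adjusted p = 0.999, edgeR). Its CPM was 4.2 to 4.84 at 0 ppm and 0.882 to 4.57 at 50 ppm, so the doses overlapped. In the same list *Msx1*, singled out after its values were seen, did not overlap between doses, at 5.81 to 7.37 CPM and 4.81 to 5.74 CPM (log2 fold change -0.26, SE 0.14). The doses did not overlap for 2.09% of all genes tested.

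The other monoamine neurons were compared because they share *Th*, *Ddc* and *Slc18a2*. The 3 noradrenergic genes had log2 fold changes of 1.38 (*Dbh*, which makes noradrenaline from dopamine), 1.46 (*Slc6a2*, the noradrenaline transporter gene) and 1.41 (*Phox2a*, a homeobox gene of noradrenergic neurons). All 3 had an unadjusted p under 0.05, beside 3.75% of all genes. None passed the adjusted threshold, with the lowest adjusted p at 0.921 in edgeR. With no filter on low counts *Dbh* passed (adjusted p = 0.043, edgeR), and *Slc6a2* had an adjusted p of 0.0607 (edgeR). In the other 14 alternatives *Dbh* did not pass. With the robust quasi-likelihood fit the unadjusted p was 0.0725 (*Dbh*), 0.134 (*Slc6a2*) and 0.00929 (*Phox2a*) in edgeR. The exact permutation test between doses gave p = 0.143, 0.286 and 0.0571 in the same order. *Slc6a2* had 2.6, 5.02, 19.9 and 26.8 CPM in the exposed brains and 1.71 to 8.04 CPM in the controls. The summed CPM of the 3 genes was 2.39 to 10.1 at 0 ppm and 4.24 to 35.4 at 50 ppm. Without both control brains low in *Hox* genes the 3 log2 fold changes were 1.14, 1.44 and 0.76 in the same order. The brain with the highest noradrenergic sum, 50 ppm replicate 4, had 7.19 CPM of *Th*, and the brain with the most *Th*, 0 ppm replicate 3 at 9.24 CPM, had a noradrenergic sum of 7.94 CPM. The part of noradrenergic cells in the levels of *Th*, *Ddc* and *Slc18a2* was not tested. Of the 4 serotonergic genes, 0 passed either threshold, with *Slc6a4*, the serotonin transporter gene, at 0.11 (SE 0.19) and *Htr1a* at 0.16 (SE 0.14), and their summed CPM was 24.6 to 35.0 at 0 ppm and 26.3 to 39.3 at 50 ppm.

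Markers of brain regions are given beside the 10 genes because whole brains were compared. Of the 4 hindbrain genes tested (*Hoxb2*, *Hoxb3*, *Hoxb4* and *Hoxa2*), all 4 had an unadjusted p under 0.05, beside 3.75% of all genes. Their median log2 fold change was 1.66, and 0 passed the adjusted threshold. Without both control brains low in these genes the 4 log2 fold changes were between 0.50 and 1.04. The forebrain gene *Six3* (-0.41, SE 0.16), the midbrain gene *Pax7* (-0.49, SE 0.22) and the cerebellum gene *Ca8* (0.37, SE 0.13) had an unadjusted p under 0.05 and did not pass the adjusted threshold. So did *Aqp4*, the astrocyte water channel gene (0.71, SE 0.15, adjusted p = 0.271, edgeR), and *Cx3cr1*, a microglial receptor gene (0.27, SE 0.12). *Aqp4* passed the adjusted threshold without 0 ppm replicate 3, at 0.90 (adjusted p = 0.00457, edgeR), and with no filter on low counts, at 0.71 (adjusted p = 0.000362, edgeR). Among markers of other organs, *Chga* (0.03, SE 0.10), which neurons use too, and *Krt10* (-0.25, SE 0.19) were the most counted, and 0 of the 9 tested passed either threshold. The part of regional content in the differences of *Foxa1*, *Lmx1a* and *Nr4a2* was not tested.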

How the data were processed

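Poly(A) RNA of 8 newborn B × C female whole brains was sequenced from strand-specific libraries. The values are counts of reads on each gene as deposited by the authors, without normalization. The authors trimmed the reads, aligned them with STAR to the C57BL/6J genome (GRCm38) and counted them with htseq-count, and the tool versions and the strand setting are not given in the sources used here. The table of the alignment to the CAST/EiJ genome was not used here. Groups and dose came from the sample labels.

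Genes were tested if at most 5 of the 8 libraries had a count of 0. Counts were normalized by TMM and tested with edgeR 4.0.16 (glmQLFit and glmQLFTest, treatment as the only term) in R 4.3.3. Benjamini-Hochberg adjustment ran over the 23113 genes tested, with a threshold of 0.05. CPM used TMM library sizes, and log2 CPM for correlations and for the exact tests between doses a prior count of 2. The standard error is the absolute log2 fold change over the square root of F. The relation between genes was tested by exact two-sided permutation over the 40320 pairings of 8 brains. The code was tested on simulated data. Gene names were found for 49326 of 49585 identifiers, and exon lengths came from GENCODE M21.

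Alternatives were DESeq2 1.42.0, its size factors in edgeR, no filter, a minimum of 10 counts in 4 libraries, a robust quasi-likelihood fit, voom with sample quality weights (limma 3.58.1), each brain left out and, added after seeing the data, both control brains low in *Hox* genes left out. Named genes were the 10 members, from each other list the genes with an unadjusted p under 0.05 (up to 4 by p) or otherwise the 2 most counted, and the 10 genes most like *Slc6a3*, which are a description and were not put through the alternatives. The members and lists were chosen with earlier results of these data known. A few listed genes are left unreported. Figures were drawn with matplotlib 3.10.9.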

Additional observations from a re-analysis of the deposited data

Results flagged for a closer look

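In a group of 4 brains, a brain was looked at again if its gap to the nearest other brain, divided by the range of the group, exceeded the 95% critical value of Dixon's test for 4 values. Of 90 groups, from 45 genes at both doses (the 10 midbrain dopaminergic neuron genes, those named from the other lists by p or count, and the 10 most like *Slc6a3*), 6 met this, where chance alone gives about 1 in 20, and none was of the 10 midbrain dopaminergic neuron genes. 50 ppm replicate 1 was far above the other exposed brains for *Hoxb3* (34.8 CPM, next 10 CPM) and *Hoxb4* (7.47 CPM, next 2.32 CPM), and far below them for *Six3* (12.9 CPM, next 20.3 CPM). The same brain was the lowest of the 8 in *Th*, *Ddc*, *Foxa1*, *Lmx1a* and *En1*. 0 ppm replicate 2 was far below the other controls for *Adcy5* (134 CPM, next 146 CPM). Among the genes most like *Slc6a3*, 0 ppm replicate 3 was far above the other controls for *Maff* (3.82 CPM, next 1.64 CPM), and 50 ppm replicate 2 far above the other exposed brains for *Hsp90b1* (359 CPM, next 307 CPM).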

How the results depend on the processing

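No paired analysis was possible because the replicate numbers were given in the order of the samples and only name a brain. None of the 10 genes passed an adjusted p of 0.05 under any of the 15 alternatives, and *Pitx3*, *Foxa1* and *Lmx1a* kept their sign in all 15. The unadjusted p of *Foxa1* and of *Lmx1a* was under 0.05 in 7 of 15 each. The number of genes called, 4 in the reported fit, was 18 with DESeq2, 52 without a filter on low counts, 2 with a minimum of 10 counts in 4 libraries, 1 with limma-voom, 7 without both control brains low in *Hox* genes (chosen after seeing the data), and 2 to 20 with 1 brain left out. *Ddc* stayed at 0.00 with DESeq2 and with the stricter filter, where its sign alone changed. With 1 brain left out, the log2 fold changes ranged from -0.02 to 0.44 (*Th*), -0.14 to 0.14 (*Ddc*), -0.30 to 0.71 (*Slc6a3*), 0.06 to 0.79 (*Pitx3*), -1.10 to -0.29 (*Foxa1*), -0.71 to -0.31 (*Lmx1a*), -0.08 to 0.38 (*Slc18a2*), -0.37 to 0.10 (*Nr4a2*), -0.15 to 0.42 (*Foxa2*), -0.31 to 0.14 (*En1*), -0.01 to 0.09 (*Qdpr*), -0.06 to 0.02 (*Adcy5*), -0.06 to 0.27 (*Slc6a4*) and -0.03 to 0.16 (*Chga*). *Slc6a4* was at -0.03 with limma-voom. Without both control brains low in *Hox* genes they were -0.18 (*Th*), -0.29 (*Ddc*), -0.27 (*Slc6a3*), -0.26 (*Slc18a2*), 0.24 (*Nr4a2*), -0.22 (*Foxa2*), -0.02 (*Maoa*), -0.02 (*Slc6a4*) and -0.13 (*Chga*). The number of pairs past the adjusted threshold, 3 as reported, was 5 with dose means subtracted. It was 0 with each brain left out, where 7 brains allow fewer pairings but a pair could still have passed. It was also 0 without the 2 brains farthest from the median. So few pairings remain there that 1 pair alone could not have passed, so this 0 says little.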
